A study of Mus musculus with 6 samples.

Results

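The replication-dependent histone genes are the H1, H2A, H2B, H3 and H4 genes of the Hist1 to Hist4 clusters, and they were taken as every non-control array probe whose gene name in the scanner files begins with Hist1h, Hist2h, Hist3h or Hist4h. The rule found 57 of 55681 probes, which name 49 genes, 6 of class H1, 14 of H2A, 12 of H2B, 8 of H3 and 9 of H4. Of these, 46 genes (53 probes) were bright enough to be tested, out of 18223 genes tested in all. The 3 that were not are Hist1h1d, well above background on 0 of 6 arrays, and Hist1h2al and Hist3h2bb-ps, each well above background on 1 shControl array.

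The cells were erythroid progenitors isolated from mouse fetal liver at embryonic day E-14.5, infected with a retrovirus that expressed a short hairpin RNA, and grown for 3 days before total RNA was taken. In the group shExosc8 (3 arrays) the hairpin targets Exosc8, a core subunit of the RNA exosome, the complex that degrades and trims RNA from its 3′ end. In the group shControl (3 arrays) it targets luciferase, which mouse cells do not carry. Every culture, control included, received polybrene and virus made in 293T cells, and grew with erythropoietin, dexamethasone and conditioned medium from hamster cells that make kit ligand. The labels give neither the strain nor whether the cells were selected for infection, and they do not tell whether the replicates were independent animals or cultures. The p-values therefore measure no more than the spread among these arrays, part or all of which may be technical.

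Cluster histone genes are transcribed during S phase to package newly copied DNA. Their mRNAs usually have no poly(A) tail and end a few bases after a short stem-loop, where the stem-loop binding protein sits and the U7 ribonucleoprotein directs cleavage. Many cluster histone genes can also make longer, polyadenylated transcripts that read past the stem-loop, a form known from differentiating cells. The labelling kit named in the labels makes its cRNA with a primer that anneals to poly(A) tails, and how much of each histone mRNA such a primer reached was not tested.

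Each array probe is a 60-base sequence from 1 transcript, and 8 of the histone probes that were tested carry all or part of the stem-loop. They are shown because the place of a probe relative to this element separates several results below. The windows are 30 bases each, read 5′ to 3′ from the deposited probe sequences, with the stem-loop letters in capitals.
Hist2h2aa2: GGCTCTTTTCAGAGCCacccactgaatcag
Hist1h2ae: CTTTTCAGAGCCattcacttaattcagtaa
Hist2h2bb: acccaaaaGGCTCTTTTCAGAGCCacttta
Hist1h3a: aattaaccaaaGGCTCTTTTCAGAGCCaca
Hist1h3g: cactttaaaGGCTCTTCTTAGAGCCaccca
Hist1h3i: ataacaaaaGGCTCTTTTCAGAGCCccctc
Hist1h4m: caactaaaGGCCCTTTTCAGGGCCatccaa
Hist1h2ab: gaaagttaaccaaaacaaaGGCTCTTTTCA
The Hist2h2aa2 and Hist1h2ae probes run 38 and 48 bases past the stem-loop, into sequence that a histone mRNA cut at its usual site would lack. The Hist1h2ae probe begins inside the element and holds 12 of its bases. In the other 6 windows the probe stops within 6 bases of the stem-loop, or, for Hist1h2ab, inside it.

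Another group of probes lies at the end of the H2A coding sequence and cannot separate the genes they are named for. The following are shown because the abundant H2A signals rest on them, with capitals where a probe differs from that of Hist1h2ak.
Hist1h2ak: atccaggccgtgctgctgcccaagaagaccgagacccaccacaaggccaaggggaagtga
Hist1h2an: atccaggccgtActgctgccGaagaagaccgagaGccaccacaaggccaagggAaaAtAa
Hist1h2af: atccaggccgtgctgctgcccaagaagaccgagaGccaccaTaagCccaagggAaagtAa
Hist2h2aa2: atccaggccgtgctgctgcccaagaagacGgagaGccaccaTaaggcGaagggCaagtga
The differences from Hist1h2ak number 6 for Hist1h2an and 5 each for Hist1h2af and Hist2h2aa2. Values of these members are reported as uncertain, since RNA of 1 gene could bind the probes of several.

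All values below are log2 signals relative to each array's 75th percentile over the probes detected on all arrays, so that 0 is a bright probe and negative values are dimmer. Levels of different probes are not compared. Exosc8 itself read 0.47, 0.45 and 0.97 in shExosc8 replicates 1, 2 and 3 and 1.75, 1.74 and 1.83 in shControl. The groups did not overlap, and the difference of -1.14 ± 0.16 (SE, n = 3 per group, limma adjusted p = 0.00555) left 45.3% of the control signal. On 5 arrays 43.1% to 49.3% of spots were well above background, and on shControl replicate 2 67.3% were. All 6 arrays shared 1 slide, with shExosc8 in row 2 and shControl in row 1, and the effect of the row cannot be told apart from that of the hairpin.

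Cluster histone signals rose or did not pass the test, and none fell. Of the 46 measured genes, 13 were higher in shExosc8 and 0 were lower (limma, Benjamini-Hochberg adjusted p under 0.05), which is 28.3%. Over all genes tested, 16% were higher and 13.8% lower, 29.9% in either direction. The median log2 difference of the 46 was 0.27 against -0.06 over all genes, and 38 of the 46 were above 0. In 20 of the 46 every shExosc8 array lay above every control array, where 23.2% of all genes did, and in 0 every shExosc8 array lay below, where 28.4% of all genes did. How many lay above 0 depended on the scaling, with 31 of 46 under normexp and quantile normalization (median 0.08), 27 for an all-probe percentile and 15 with no scaling. With no scaling between arrays, 9 were higher and 2, Hist1h1a and Hist1h3a, were lower, while the median of all genes moved to -0.56. Hist1h2ac, Hist1h2bq and Hist2h3c2, which are among the 13, were bright enough to be tested through the shExosc8 arrays alone. That is the group in which they are high. Where probes had to be well above background on all arrays, 10 of 43 measured genes were higher and 0 lower. With no filter on dim probes 5 were higher, and with the slide column as a block 1 was, Hist1h2bc.

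The rises were unequal between classes. H2B had 6 of 11 measured genes higher and a median of 0.94. H2A had 4 of 13 higher with a median of 0.35, which was 0.02 with 3 higher under normexp and quantile normalization and -0.15 with no scaling, and H1, H3 and H4 had 1 of 5, 1 of 8 and 1 of 9, with medians of 0.06, 0.08 and 0.11. By cluster, 10 of 35 Hist1 genes, 1 of 8 Hist2 genes, 2 of 2 Hist3 genes and 0 of 1 Hist4 gene were higher. The share of genes higher was 54.5% for H2B, 30.8% for H2A and 20% for H1. It was 12.5% for H3, 11.1% for H4 and 12.5% for Hist2, below the 16% of all genes tested. The difference between classes was not tested.

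**Figure D1:**
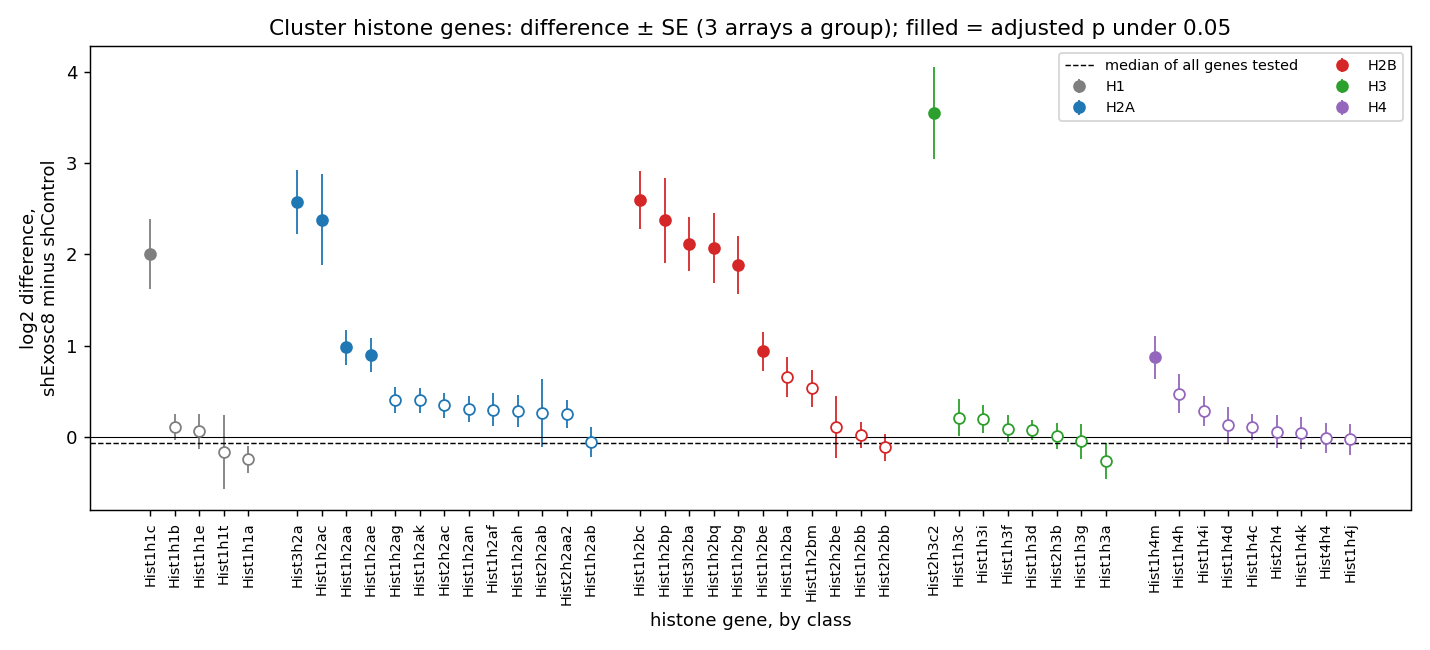
Log2 difference, shExosc8 minus shControl, with its SE (n = 3 per group) for the 46 measured cluster histone genes, grouped by class on the x axis. Filled points passed the adjusted threshold of 0.05 and the dashed line is the median of all genes tested, -0.06. The 13 filled points all lie above 0, and most of the others lie near it.

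The arrays within each group were not equal. Relative to the control mean of each gene, the median over the 46 genes was 0.19, 0.55 and 0.11 on shExosc8 replicates 1, 2 and 3. On shControl replicates 1, 2 and 3 it was 0.11, 0.12 and -0.22. For the H2B genes it was 1.18, 1.19 and 0.46 in shExosc8 and 0.05, 0.18 and -0.23 in shControl. Replicate 3 was thus the lowest of each group in these medians, and whether the replicate 3 arrays share an offset was not tested. The shExosc8 replicate 3 array, which kept the most Exosc8 signal, was the lowest shExosc8 array for H2B. It was the highest for H1, at 0.29 against -0.06 and 0.06, and lay between the others for H2A, at 0.31 against 0.21 and 0.60. Without shExosc8 replicate 3 the number of members called higher was 16, without replicate 1 it was 5, and without shControl replicate 3 it was 7.

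Among the H2B genes, which encode a core histone of the nucleosome, the change with the smallest p was that of Hist1h2bc. It read 2.38, 2.64 and 1.42 in shExosc8 and -0.29, -0.43 and -0.63 in shControl. All 3 shExosc8 arrays stood far above the controls, by 2.60 ± 0.32 (6.04-fold, limma adjusted p = 0.00346). Its probe lies at chr13:23784254-23784313 (mm9, plus strand).

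Hist1h2bp gave -2.79, -2.55 and -4.31 in shExosc8 against -5.69, -5.29 and -5.78 in shControl, a difference of 2.37 ± 0.46 (5.18-fold). The shExosc8 arrays were spread, with replicate 3 nearest the controls, yet the groups did not overlap. Hist3h2ba, of the small Hist3 cluster, gave -1.41, -1.31 and -2.08 against -3.45, -3.44 and -4.23, a difference of 2.11 ± 0.30. Replicate 3 was the lowest in each group, and the groups did not overlap.

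For Hist1h2bq the shExosc8 arrays read -4.44, -4.45 and -4.98 and the shControl arrays -6.88, -5.87 and -7.33, a difference of 2.07 ± 0.38. The controls were dim, with 2 of 3 well above background. Its probe maps to the plus strand at chr13:21929214-21929273 (mm9), whereas the RefSeq promoter table places the gene with its accession (H2bc23) on the minus strand, so which transcript it measures is uncertain.

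Hist1h2bg read -3.94, -4.05 and -4.76 against -5.93, -5.76 and -6.70, a difference of 1.88 ± 0.32 (3.68-fold). Hist1h2be read -4.34, -4.33 and -5.06 against -5.56, -5.42 and -5.57, a smaller difference of 0.94 ± 0.21. In each the lowest shExosc8 array still lay above the highest control. The adjusted p of these 5 H2B genes lay between 0.00519 and 0.0228.

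The other 5 H2B genes did not pass. Hist1h2ba, the testis H2B variant, and Hist1h2bm had differences of 0.66 and 0.53, without overlap between groups. Hist2h2be was at 0.11, Hist1h2bb at 0.02 and Hist2h2bb, on the probe that stood for the gene, at -0.11. Hist1h2bb, the least changed by p in its class, read -4.49, -4.08 and -4.40 in shExosc8 and -4.50, -4.22 and -4.32 in shControl, and the groups overlapped throughout.

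The H2A genes fell into a few clear rises and a block of abundant signals with small differences. Hist3h2a read 0.53, 0.70 and -0.16 in shExosc8 against -2.10, -1.71 and -2.84 in shControl. That is 2.57 ± 0.35 higher (5.95-fold, limma adjusted p = 0.00456), with no overlap. Hist3h2a and Hist3h2ba were the only measured genes of the Hist3 cluster, and their probes are neighbours on chromosome 11 at chr11:58768954-58769013 and chr11:58762964-58763023 (mm9, both plus strand).

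Hist1h2ac read -3.75, -3.59 and -5.27 against -6.14, -6.46 and -7.15, a difference of 2.38 ± 0.49 (limma adjusted p = 0.0171), and 2 of its 3 control arrays were well above background. The shExosc8 arrays were high, with replicate 3 again the lowest. Hist1h2aa, the testis H2A variant, read -4.28, -3.98 and -4.54 against -5.21, -5.03 and -5.51, which is 0.98 ± 0.19 higher. Hist1h2ae, whose probe runs past the stem-loop, read -5.22, -5.31 and -4.94 against -5.74, -6.11 and -6.33, which is 0.90 ± 0.19 higher. The groups of both were separate, and both passed (limma adjusted p = 0.0142 and 0.0167).

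Of the 9 H2A genes that did not pass, 7 gave signals at 50.2% to 86.5% of the scanner's saturation value, and 0 of these spots were called saturated. The 6 H2A probes that end in the stop codon of an open frame differed by 0.25 to 0.40. This small shift depended on the normalization: in the authors' deposited table the log2 fold changes of those 7 abundant genes lay between -0.05 for Hist1h2ah and 0.03 for Hist1h2af. Hist1h2ag, the most changed of the abundant H2A genes at 0.40 (limma adjusted p = 0.0756), read 6.61, 7.01 and 6.86 in shExosc8 and 6.56, 6.43 and 6.27 in shControl. The groups were separate but close. Its mm9 strand also differs from that of its RefSeq entry, as for Hist1h2bq, and these were the 2 such cases among 39 genes with both strands given. The files place the Hist1h2ag probe at chr13:23666685-23726365 (mm9), a stretch far longer than the probe, so which transcript it measures is uncertain. Hist1h2ab, whose probe stops inside the stem-loop, was the H2A gene with the largest p. It read 4.88, 5.20 and 4.76 against 5.09, 5.13 and 4.79, and the groups overlapped at a difference of -0.06.

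Among the linker histones, which bind DNA between nucleosomes, Hist1h1c rose and the other 4 measured did not pass. It read 1.87, 1.94 and 0.96 in shExosc8 and 0.00, -0.13 and -1.11 in shControl. The groups did not overlap, although the lowest shExosc8 array was within 1 log2 unit of the highest control, and the difference was 2.00 ± 0.39 (4.01-fold, limma adjusted p = 0.0137). Hist1h1b, Hist1h1e, the testis linker Hist1h1t and Hist1h1a differed by 0.11, 0.06, -0.16 and -0.25. Hist1h1e read 2.42, 2.90 and 2.28 against 2.54, 2.59 and 2.28, with full overlap.

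Of the H3 genes Hist2h3c2 rose. It read -2.90, -2.87 and -4.29 in shExosc8 and -6.67, -6.33 and -7.70 in shControl. The difference of 3.55 ± 0.50 (11.7-fold, limma adjusted p = 0.00537) left the groups far apart, with 2 of 3 control arrays well above background. The size depended on the background correction, at 2.46 with normexp and the 75th percentile and 2.27 with normexp and quantile normalization. The files give this probe no genome position, and its sequence ends in 6 A. The other 7 H3 genes differed by -0.26 to 0.21 and did not pass. Hist2h3b read 1.26, 1.54 and 1.43 against 1.54, 1.50 and 1.17, and the groups overlapped.

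Of the H4 genes 1 passed. Hist1h4m, whose probe ends 6 bases after the stem-loop, read -2.18, -1.90 and -2.66 in shExosc8 and -2.85, -3.10 and -3.41 in shControl. The difference of 0.87 ± 0.24 passed narrowly (limma adjusted p = 0.0366), and it was lost when any of 5 of the 6 arrays was left out. The other 8 H4 genes did not pass, at -0.03 to 0.47. Hist4h4, the least changed by p, read 2.52, 2.94 and 2.57 against 2.79, 2.81 and 2.45, with overlap.

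**Figure D2:**
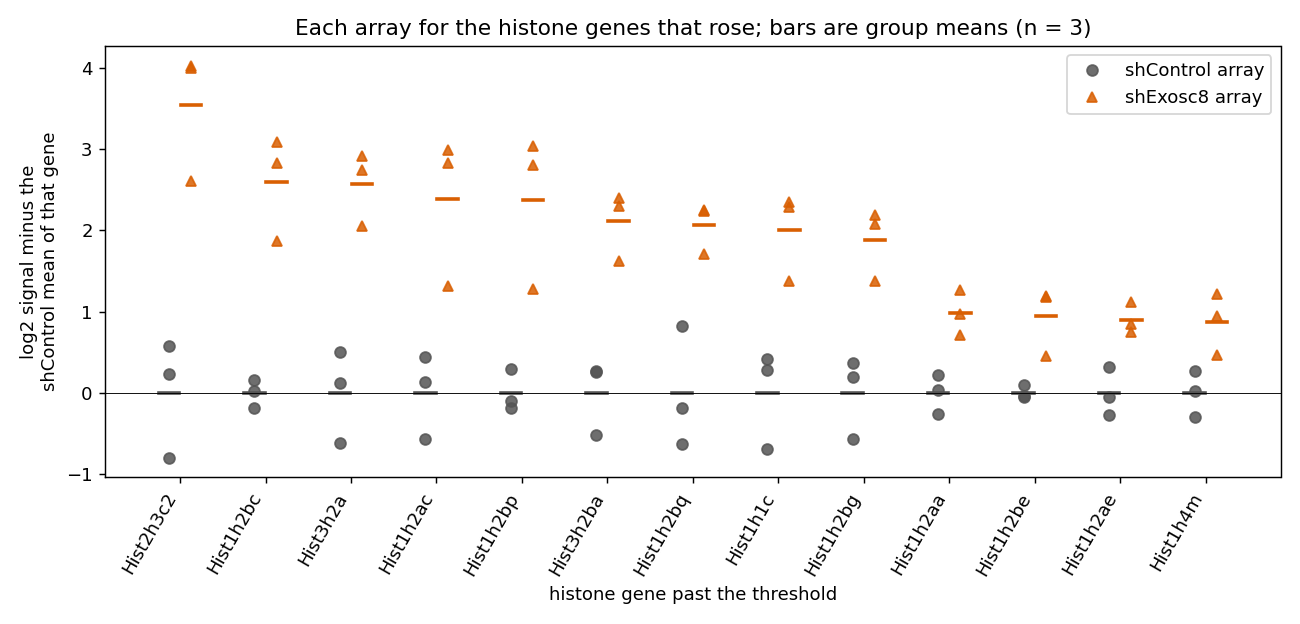
Log2 signal of each array minus the shControl mean of that gene, for the 13 cluster histone genes past the threshold on the x axis, with circles for the 3 shControl arrays, triangles for the 3 shExosc8 arrays and bars for group means. In all 13 the triangles lie above the circles, and for most H2B genes 1 triangle, replicate 3, sits below the other 2.

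Firmness differed among the 13. With each array left out in turn, Hist1h2bc, Hist3h2a, Hist3h2ba, Hist1h2bg and Hist2h3c2 kept their calls every time. Hist2h3c2, like Hist1h2ac and Hist1h2bq, was not measured where probes had to be above background on all arrays. Hist1h2bq lost its call for 1 array, Hist1h1c for 2, Hist1h2aa, Hist1h2ac, Hist1h2ae and Hist1h2bp for 3, and Hist1h2be and Hist1h4m for 5. An exact permutation test of any 1 gene cannot go below p = 0.1 with 3 against 3 arrays. In the authors' deposited table of the same comparison, 6 of the 46 probes had an adjusted p under 0.05 and a higher value, namely Hist1h2bc, Hist1h2bg, Hist1h2bq, Hist2h3c2, Hist3h2a and Hist3h2ba, and 0 a lower one, where 3.34% of all non-control spots did in either direction.

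The sharpest contrast lay within Hist2h2aa2, which has a probe on each side of the stem-loop. On its coding-end probe at chr3:96043781-96043840 (mm9, minus strand) the shExosc8 arrays read 6.63, 6.95 and 6.48 and the controls 6.54, 6.47 and 6.31. These overlap, with a difference of 0.25 ± 0.15. On the probe that runs past the stem-loop, at chr3:96043669-96043728, they read 2.25, 2.28 and 0.79 against -2.08, -2.13 and -3.31. Every shExosc8 array was far above every control, by 4.28 ± 0.51 (19.4-fold, limma adjusted p = 0.00339, each probe tested on its own).

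Tested that way, 15 of the 53 histone probes were higher and 0 lower, against 14.7% and 13.2% of all probes. The difference between the changes of the Hist2h2aa2 probes was 4.03 in log2 (exact permutation p = 0.1, the smallest possible, and 0.2 adjusted over the 8 probe pairs of 6 genes). It was the largest of the 8. Its stem-loop probe shares up to 22 bases with the probe of another member, and Hist2h2aa2 has a near-identical neighbouring copy in the mouse genome, so the 2 genes cannot be told apart.

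Hist2h2bb also had probes that parted. The probe that ends 6 bases after the stem-loop, at chr3:96074056-96074115 (mm9, plus strand), read 0.42, 0.68 and 0.34 in shExosc8 and 0.64, 0.75 and 0.39 in shControl. The groups overlapped, at -0.11 ± 0.15. A probe farther along the same strand, at chr3:96082754-96082813, holds the polyadenylation hexamer AATAAA and is named by the files through an Ensembl transcript. It read -5.44, -4.85 and -5.36 against -6.92, -6.11 and -6.71, separate groups with a difference of 1.36 ± 0.26 (limma adjusted p = 0.014). The change of the far probe exceeded that of the near one by 1.47 (exact permutation p = 0.1, adjusted 0.2). Without shControl replicate 1 or shControl replicate 3 the far probe lost its call (limma adjusted p = 0.0505 and 0.0613).

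**Figure D3:**
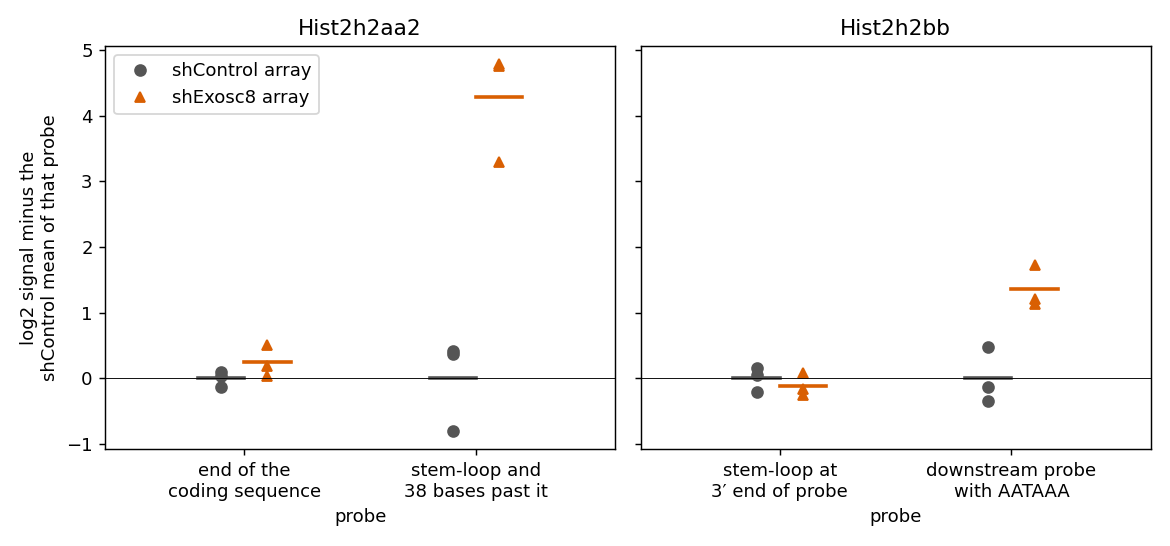
Log2 signal of each array minus the shControl mean of that probe for the 2 probes of Hist2h2aa2 (left) and of Hist2h2bb (right), with circles for shControl arrays, triangles for shExosc8 arrays and bars for group means. For Hist2h2aa2 the coding-end probe differs by 0.25 and the probe past the stem-loop by 4.28, and for Hist2h2bb the values are -0.11 and 1.36.

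In the other genes with several probes the probes changed little. The 3 probes of Hist1h4i differed by 0.29, 0.23 and 0.06, the 2 of Hist1h4k by 0.05 and 0.09, and the 2 of Hist2h4 by 0.06 and -0.45. The second Hist1h2ak probe was at -0.20, against 0.40 for the coding-end probe. None of these 9 probes passed. The Hist1h4i probe at 0.06 holds ATTAAA and ends in 6 A, so this gene did not show the contrast of Hist2h2bb. The exact permutation p was also 0.1 for the Hist1h2ak pair and for 1 Hist1h4i pair, with differences between the changes of -0.60 and 0.23, so 4 of the 8 pairs reached it.

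The 53 measured probes were then sorted by what their sequence holds. This sorting was chosen after the values had been seen, so its counts are a description without a test. Of the 6 probes with the stem-loop at or within 6 bases of their 3′ end, 1 was higher, Hist1h4m, and the median was -0.05. Both probes that run at least 20 bases past the stem-loop were higher, at 0.90 and 4.28. Of 6 probes with AATAAA or ATTAAA or a run of at least 6 A at the 3′ end, 4 were higher, Hist2h3c2, Hist3h2ba, Hist2h2bb and Hist1h2be, and the median was 1.15. The other 2, at 0.40 for Hist1h2ag and 0.06 for 1 of the Hist1h4i probes, did not pass.

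Probes that share sequence with another histone probe did not rise past the threshold, where they hold none of the features above. Of 11 that share at least 20 bases with another histone probe and hold none of those features, 0 were higher, and they ranged from -0.03 to 0.40. The 6 H2A probes that end in a stop codon of an open frame are among the 11, and the others were not placed in coding sequence. Neither of 2 further probes that end in a stop codon of an open frame passed. The remaining 26 probes hold none of these features, 8 of them were higher, and their median was 0.25. Among those 8 are Hist1h2bc, Hist3h2a, Hist1h2ac and Hist1h1c, so the features above do not cover all the rises. Whether these 8 probes lie before or past the stem-loop of their genes was not determined, since no mm9 annotation was used.

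**Figure D4:**
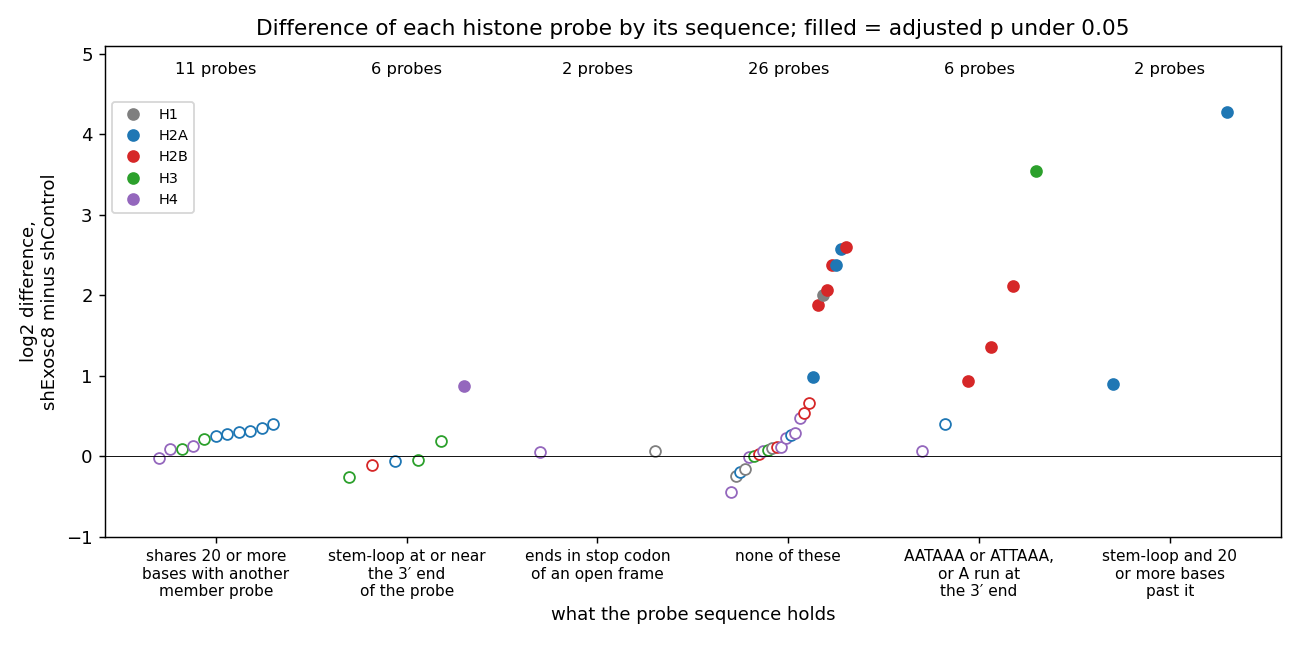
Log2 difference, shExosc8 minus shControl, of each of the 53 measured histone probes, sorted on the x axis by what the probe sequence holds and coloured by histone class, with filled points past the adjusted threshold of 0.05. Probes sorted as sharing at least 20 bases with another histone probe stay between -0.03 and 0.40. Both probes that run past the stem-loop and 4 of 6 with a polyadenylation hexamer or an A run are filled.

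The gene models, also looked at after the values had been seen, gave a further description without a test. In RefSeq (GRCm38.p6), 44 of the 46 measured genes could be matched, and 40 have 1 transcript. The 4 with more, Hist1h2bc, Hist1h2bp, Hist1h2bq and Hist1h2be, were all higher, at 0.94 to 2.60, while 8 of the 40 were. For Hist1h2bq this rests on the gene named by its accession, which lies on the other strand from the probe. These 4 span 8282, 14079, 3788 and 37455 bases in RefSeq, far beyond a plain histone gene. The only other model over 1000 bases is Hist2h2be, with 2667 bases and a difference of 0.11. The other 39 span 375 to 903 bases, and 8 of them were higher.

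Many H2A and H2B genes face each other across a short shared promoter. Among genes with a listed RefSeq promoter, 10 pairs of core histone genes lay head to head, with fewer than 400 bases between start sites. All are of the Hist1 cluster. Genes with no listed promoter, Hist1h2bc and Hist2h2be among them, could not be paired, so more such pairs may exist. In 3 of them both partners were measured. In the pair of the testis variants Hist1h2ba and Hist1h2aa the differences were 0.66 (limma adjusted p = 0.067) and 0.98. In the pair of Hist1h2ae and Hist1h2bg both rose, by 0.90 and 1.88. In the pair of Hist1h2an and Hist1h2bp the signals parted, at 0.31 (limma adjusted p = 0.133) and 2.37, though the Hist1h2an probe lies in shared coding sequence. The sequences between the start sites (RefSeq, GRCm38.p6, plus strand, 179, 239 and 280 bases) are shown for these pairs, with capitals for matches to 4 promoter motifs on either strand.
Hist1h2ae and Hist1h2bg, chr13:23571221-23571399: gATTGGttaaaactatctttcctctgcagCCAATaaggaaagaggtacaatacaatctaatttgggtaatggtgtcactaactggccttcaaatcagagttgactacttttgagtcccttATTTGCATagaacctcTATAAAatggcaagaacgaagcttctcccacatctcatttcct
Hist1h2an and Hist1h2bp, chr13:21787249-21787487: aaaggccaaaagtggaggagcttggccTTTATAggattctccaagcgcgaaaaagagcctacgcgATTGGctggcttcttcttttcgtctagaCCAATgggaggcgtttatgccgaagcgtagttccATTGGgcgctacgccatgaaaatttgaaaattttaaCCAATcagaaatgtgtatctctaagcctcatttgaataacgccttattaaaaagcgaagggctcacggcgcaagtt
Hist1h2ba and Hist1h2aa, chr13:23934157-23934436: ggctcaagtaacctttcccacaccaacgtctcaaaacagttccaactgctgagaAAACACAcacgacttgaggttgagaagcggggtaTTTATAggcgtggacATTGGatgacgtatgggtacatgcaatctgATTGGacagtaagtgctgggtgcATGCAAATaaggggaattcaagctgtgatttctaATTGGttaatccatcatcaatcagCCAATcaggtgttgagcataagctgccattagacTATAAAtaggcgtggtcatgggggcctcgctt
The first holds 2 copies of CCAAT, the element bound by NF-Y, 1 TATAAA and 1 ATTTGCAT, the octamer bound by Oct-1. The second holds 4 copies of CCAAT, 1 TATAAA and no octamer of these letters. The last holds 4 copies of CCAAT, 2 of TATAAA, 1 octamer and 1 AAACACA.

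Promoters in RefSeq, 250 bases before to 50 after the start, were found for 41 of the 49 genes (42 promoters) and searched on both strands. CCAAT was in 85.7% of them against 37.4% of all 32851 promoters in the table, and TATAAA in 59.5% against 13.6%. The octamer ATTTGCAT was in 31% against 1.74%, with 7 of 13 H2A and 6 of 10 H2B promoters and in none of the 6 of H1, 5 of H3 or 8 of H4. AAACACA, the H1 box, was in 83.3% of H1 promoters against 7.18% of all. CCAAT was in every H1, H2A, H2B and H3 promoter in the table and in 2 of 8 H4 promoters. None of the 4 motifs contains another, and a match describes sequence alone.

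The genes that act on histone mRNA had a share of lower genes near that of all genes. Of 22 measured genes of histone mRNA 3′ processing and decay, 1 was higher and 4 were lower, with a median of -0.25, where 13.8% of all genes were lower. The lower count turned on the processing, from 0 with normexp and the 75th percentile to 8 with the percentile over all probes and 13 with no scaling. Zfp473, a zinc finger protein of the U7 particle, was higher by 0.89 ± 0.15 (limma adjusted p = 0.00882). Lsm1, of the cytoplasmic decay ring, fell by 0.49 ± 0.10, and Snrpd3, an Sm protein shared by the U7 particle and the spliceosome, fell by 0.44 ± 0.10. Cpsf3, the nuclease that cuts histone pre-mRNA, and Ncbp2, of the cap-binding complex, were the other 2 that fell, by 0.58 and 0.88.

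Of 12 measured genes of histone gene transcription 1 was higher and 1 lower, where 16% of all genes were higher and 13.8% lower. Casp8ap2, which encodes FLASH, a protein needed for histone gene expression, fell by 0.43 ± 0.10 (limma adjusted p = 0.0224). The transcription factor E2f2 was higher by 1.07 ± 0.26. Pou2f1, which encodes Oct-1, was at 0.68 and did not pass (limma adjusted p = 0.0505). Npat, the main coactivator of histone genes, was not bright enough to be tested.

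Histone chaperones and S phase genes had medians below 0, with shares of lower genes near the 13.8% of all genes. Of 26 measured chaperones 0 were higher and 4 lower, with a median of -0.28. Npm3 fell by 0.82, Tonsl, which reads newly deposited histones on replicated DNA, fell by 0.77, and Atrx, a partner of the H3.3 chaperone Daxx, fell by 0.35. Of 40 S phase genes 1 was higher and 7 lower, with a median of -0.26. Cdc6, which loads the replicative helicase, fell by 0.61, Pole2, a subunit of DNA polymerase epsilon, fell by 0.43, and Gins2, of the helicase complex, fell by 0.76. Rrm2, of ribonucleotide reductase, was the 1 that was higher, by 0.85. With the percentile over all probes 13 chaperones and 19 S phase genes were lower, with no scaling 17 and 31, and with normexp and the 75th percentile 3 and 4.

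Of the replacement histones, which are made outside S phase from polyadenylated mRNA, 1 of 10 measured was higher and 0 lower, with a median of 0.19. That gene was H1f0, the linker histone that builds up in differentiating cells, at 0.98 ± 0.21 (limma adjusted p = 0.0184). H2afv and H2afz were at -0.31 and 0.24 and did not pass. Of all genes tested, 16% were higher and 13.8% lower, so the count of this list was not above that share.

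Markers of several blood lineages differed between the groups alongside the histone values. Of all genes tested, 16% were higher and 13.8% lower, and the counts below are to be read beside these shares. Of 12 erythroid markers, all detected on every control array, 4 were higher and 1 lower. Signals of a list were summed on the linear scale before the log2, so the brightest genes, here Hba-a1 and Hbb-b1, weigh most. Those differed by 0.45 and 0.38 and did not pass. The summed log2 signal of the erythroid list was 8.66 to 9.32 in shExosc8 and 8.28 to 8.53 in shControl. All 12 megakaryocyte markers were higher, at 5.97 to 6.45 against 2.70 to 3.24, and all 12 neutrophil and monocyte markers, at 5.50 to 5.92 against 3.67 to 3.96. Of the markers that were bright enough, 5 of 7 macrophage (1.02 to 1.26 against -0.55 to -0.23), 4 of 5 mast cell (1.45 to 2.16 against -0.14 to 0.38), 4 of 7 hepatocyte (-0.47 to -0.22 against -1.16 to -0.96) and 1 of 5 lymphoid (-1.67 to -1.55 against -2.02 to -1.82) were higher. Fgb of the hepatocyte list and Vpreb3, the lymphoid marker that was higher, were bright enough to be tested through the shExosc8 arrays alone. That is the group in which they are high. Of 4 endothelial and stromal markers 1 was higher and 1 lower (0.30 to 0.46 against 0.13 to 0.17). The defining hepatocyte marker Alb and the macrophage marker C1qa were among those not bright enough in either group. The part of these markers in the histone differences was not tested, and in whole cultures fewer cells of a type and less RNA per cell cannot be told apart.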

How the data were processed

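Total RNA of 6 samples was labelled with Cy3 and hybridised to 1-colour Agilent arrays. The deposited intensity values, per the file headers, were made with Feature Extraction 10.7.3.1, which subtracted background and set flags for spots above background, saturated or outlying. The authors' deposited table holds the same intensity values, equal to the scanner files, plus the authors' log2 fold changes and p-values from limma, per the submitters' processing notes. How those fold changes were normalized is not stated in the labels or headers.

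From 62976 spots, 3671 controls and flagged spots were left out, and spots of 1 probe were averaged. The log2 signal minus each array's 75th percentile, over the 21613 probes above background on all arrays, was tested with limma 3.58.1 in R 4.3.3 (lmFit, eBayes, two-sided), with Benjamini-Hochberg adjustment over 18223 genes and a threshold of 0.05. A probe was kept if well above background on all arrays of 1 group (24833 probes), and the brightest stood for its gene. The step was tested on simulated data.

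Any member could be named. Array values are given for members past the threshold and, per class, for those with the smallest and largest p, and of each pathway list the 3 genes with the smallest p are named. Others named from the lists, and Hist1h2ag, were chosen after their values were seen. The members and lists were chosen with earlier results of these data known. The number of arrays limits the precision. Probe positions are those of the files (mm9), and RefSeq names were matched by accession for 46 of 49 genes. No mm9 annotation was used, so exons and UTRs are not given. Alternatives in scaling, background, filter, probe choice, blocks and left-out arrays are in the closing section.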

Additional observations from a re-analysis of the deposited data

How the results depend on the processing

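Of the 46 measured genes, 13 were higher and 0 lower, with a median of 0.27. With no scaling between arrays 9 were higher and 2 lower, with a median of -0.23. A constant per array moves all genes alike, so the gap between the median of the members and that of all genes, 0.33, cannot change with it. The gap was 0.17 with normexp and quantile normalization, 0.21 with normexp and the 75th percentile and 0.20 without shExosc8 replicate 2. With no filter on dim probes 5 were higher. With the slide column as a block 1 was higher, Hist1h2bc, and 496 genes were higher and 40 lower in all. Only the arrays in columns 2 and 3 bear on the group difference in that fit, and 2 of them are shExosc8. With 1 array left out in turn, 5 to 16 were higher and 0 lower, with a median of 0.13 to 0.38. The lowest counts were 5 without shExosc8 replicate 1 and 7 without shControl replicate 3. The cause of each loss was not tested. With the other scalings, background corrections, probe choices and the filter on all 6 arrays, 10 to 15 were higher and 0 lower, with medians down to 0.13 (percentile over all probes) and 0.08 (normexp and quantile). With the percentile over all probes 37.1% of all called genes were higher, against 53.7%, and among the members 13 were. No member named above turned its direction past the threshold in any alternative.

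Same-numbered arrays of the groups correlated at 0.04, 0.22 and 0.30 in their deviations, and different-numbered arrays at -0.26 to 0.17. Whether the replicate numbers pair the arrays was not tested, and the main fit left them unpaired. With the replicate number as a block, 15 members were higher and 0 lower, and over all genes 3168 were higher and 2463 lower. The Hist2h2aa2 probe past the stem-loop passed in all 16 alternatives, chosen after seeing the data, at 3.64 to 4.96, with adjusted p up to 0.0445. The far Hist2h2bb probe passed in 12 of 16. Probes near background, such as Hist1h2bq, Hist1h2ac and Hist2h3c2 in shControl, limit the precision of their differences.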
